A study of Mus musculus with 8 samples.

Results

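GABA-A receptors are chloride channels opened by the inhibitory transmitter GABA, and each is a ring of subunits drawn from a large gene family. The alpha and beta subunits form the GABA-binding site between them, the alpha subunit largely sets whether benzodiazepines act on the channel, and a delta subunit in place of a gamma subunit gives receptors outside the synapse that carry a lasting, tonic current. The projection neurons of the striatum release GABA and receive it from each other and from interneurons. Described here are 7 subunit genes, Gabra2, Gabra3, Gabra4, Gabra5, Gabrb1, Gabrb2 and Gabrd, taken as every non-control probe that the array files name for them. They are 7 of 30397 gene names on the array, read by 9 of its 39429 probes, 2 each for Gabra2 and Gabra3 and 1 for each other gene.

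Expression was measured on 2-colour Agilent arrays in striatum of adult female mice. The 4 heterozygous samples carried 1 gene-trap insertion in Brd2 and 1 intact copy, and the 4 wildtype samples carried no insertion. Both genotypes came from matings of heterozygous parents of backcross generation 7 onto C57Bl/6J, and the trap was present in the whole animal rather than in chosen cells. Brd2 encodes a bromodomain protein that binds acetylated histones, and the human gene has been linked to juvenile myoclonic epilepsy, a background that gives inhibitory receptors their interest here. The tissue field of the labels also names prefrontal cortex. Samples of 1 genotype shared an array in pairs, with Cy3 in replicates 1 and 3 and Cy5 in replicates 2 and 4.

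Values below are normalised log2 intensities of single channels. Differences are heterozygous minus wildtype in log2 units, each beside its standard error (SE) from limma, and p-values are limma's with Benjamini-Hochberg adjustment over all 25352 probes tested. Well above background is the scanner software's own call. A probe's brightness depends on its sequence, so the levels of different subunits were not ranked against each other.

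The brighter of the 2 Brd2 probes measured 11.92, 11.83, 12.57 and 11.70 in heterozygous replicates 1 to 4, against 12.65 to 13.10 in wildtype, a difference of -0.85 (SE 0.19, limma adjusted p = 0.39), while the dim one differed by 0.29 (SE 0.17). The library labelled heterozygous replicate 3 lay next to the lowest wildtype sample, so the subunit differences are given with and without it. Without it the Brd2 difference was -1.03 (SE 0.15). Of 12 striatal projection neuron markers, all were tested and 11 were well above background in all 8 samples, among them Ppp1r1b, Penk and Drd1, while Drd2 was so in 7. The difference was negative for all 12 (median -0.43). The mean log2 level of the 9 with complete values relative to the wildtype mean lay between -1.10 and 0.18 in heterozygous and between -0.12 and 0.15 in wildtype samples. That of 8 cortical excitatory neuron markers lay between 0.74 and 2.08 in heterozygous samples, against -0.31 to 0.72 in wildtype, with a positive difference for all 8. The mean of 6 interneuron markers lay between 0.17 and 0.69 in heterozygous and between -0.18 and 0.15 in wildtype samples. Their differences were positive for 4 and negative for 2 (median 0.18). Pvalb differed by 1.58, and by 0.80 without the library labelled heterozygous replicate 3. Vip differed by 0.96, against -0.06 for Lhx6 and -0.10 for Chat. Astrocyte, oligodendrocyte, microglial and endothelial lists overlapped between genotypes. The thalamic list overlapped as well, but reached 1.35 in the library labelled heterozygous replicate 3. It lay between -0.06 and 0.40 in the other heterozygous samples, against -0.225 to 0.21 in wildtype. Of its 4 tested genes 3 had a positive and 1 a negative difference. Slc17a6 differed by 1.14 (SE 0.23), and by 0.915 (SE 0.17) without that library, against -0.16 for Tcf7l2. Choroid plexus markers reached 1.96 in the library labelled heterozygous replicate 3 and lay between -0.99 and 0.57 in the other heterozygous samples, against -0.28 to 0.21 in wildtype. Spots well above background made up 37.7% to 75.5% of heterozygous and 43.6% to 68.9% of wildtype arrays' channels, more in Cy5 than in Cy3. The lowest share, 37.7%, was that of the library labelled heterozygous replicate 3. Over all probes 1 passed the threshold of adjusted p under 0.05 (0.00394%), the Btbd9 probe, and 8.89% had an unadjusted p under 0.05.

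**Figure D1:**
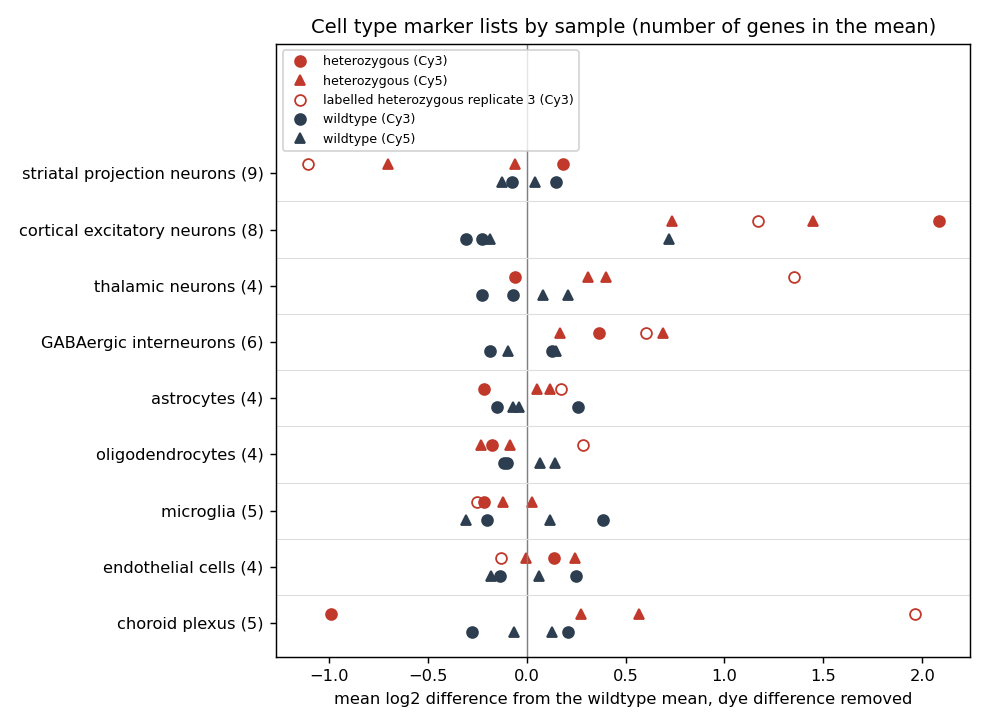
Mean log2 difference of each sample from the wildtype mean for 9 lists of cell type markers, with the dye difference removed and the number of genes in each mean in brackets. Heterozygous samples (red) lie at 0.74 to 2.08 for cortical excitatory neuron markers, and the library labelled heterozygous replicate 3 (open circle) is lowest for striatal projection neuron markers at -1.10.

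All 9 probes were 60 bases long. The 2 Gabra2 probes lie on chromosome 5 (mm9 coordinates of the array files, minus strand, 71352275 to 71352334 for A_55_P2027900 and 71352306 to 71352365 for A_55_P2177351) and overlap. They share the 29 bases shown first below, and of the 31 bases of its own A_55_P2027900 has 27 purines and A_55_P2177351 has 17. The Gabra3 probes lie on chromosome X (minus strand, 69678031 to 69678090 for A_55_P1963463 and 69679357 to 69679416 for A_55_P2112772), and the last 30 bases of each are shown because the pair differed in signal. Capitals mark an unbroken run of purines, which reaches 11 bases in A_55_P2112772. The Gabrd probe holds a run of 11 as well and A_55_P2027900 a run of 23, and both were well above background in all 8 samples. The part of such runs in the signal was not tested. The last is the 3′ end of the only Gabra4 probe (chromosome 5, minus strand, 71961055 to 71961114), on which the largest difference among the subunits rests.
Gabra2, shared by both probes: tcagctcacttcaatcattggaaactacc
Gabra3, A_55_P1963463: tgcaatgtttagcggctgttcattaaactc
Gabra3, A_55_P2112772: acAGAGAAAGAGAcagagagacagaaagac
Gabra4, A_55_P2023902: taaattgattctagaaaactggggaccggg

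All 7 genes had at least 1 probe well above background in 3 or more samples of each genotype. The probes of Gabra4, Gabrb1, Gabrb2 and Gabrd, the first Gabra2 probe and the first Gabra3 probe were so in all 8 samples. Gabra5 was so in 7, falling short in the library labelled heterozygous replicate 3, and the second Gabra2 probe in 6. The second Gabra3 probe was so in 2 samples, heterozygous replicates 2 and 4. It was the 1 probe that missed the filter of 4 samples and is given without a test. None of the 8 tested probes passed the threshold in limma, which 0.00394% of all probes did, 4 differences being negative and 4 positive. The median over the 8 was -0.04, against -0.02 over all probes tested. Without the library labelled heterozygous replicate 3, 2 differences were negative and 6 positive, with a median of 0.10, against -0.01 over all probes. At an unadjusted p under 0.05 there was 1 probe, that of Gabra4, or 12.5% of the 8 against 8.89% of all probes. It was lower in heterozygous samples, as 4.83% of all probes were at that p.

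**Figure D2:**
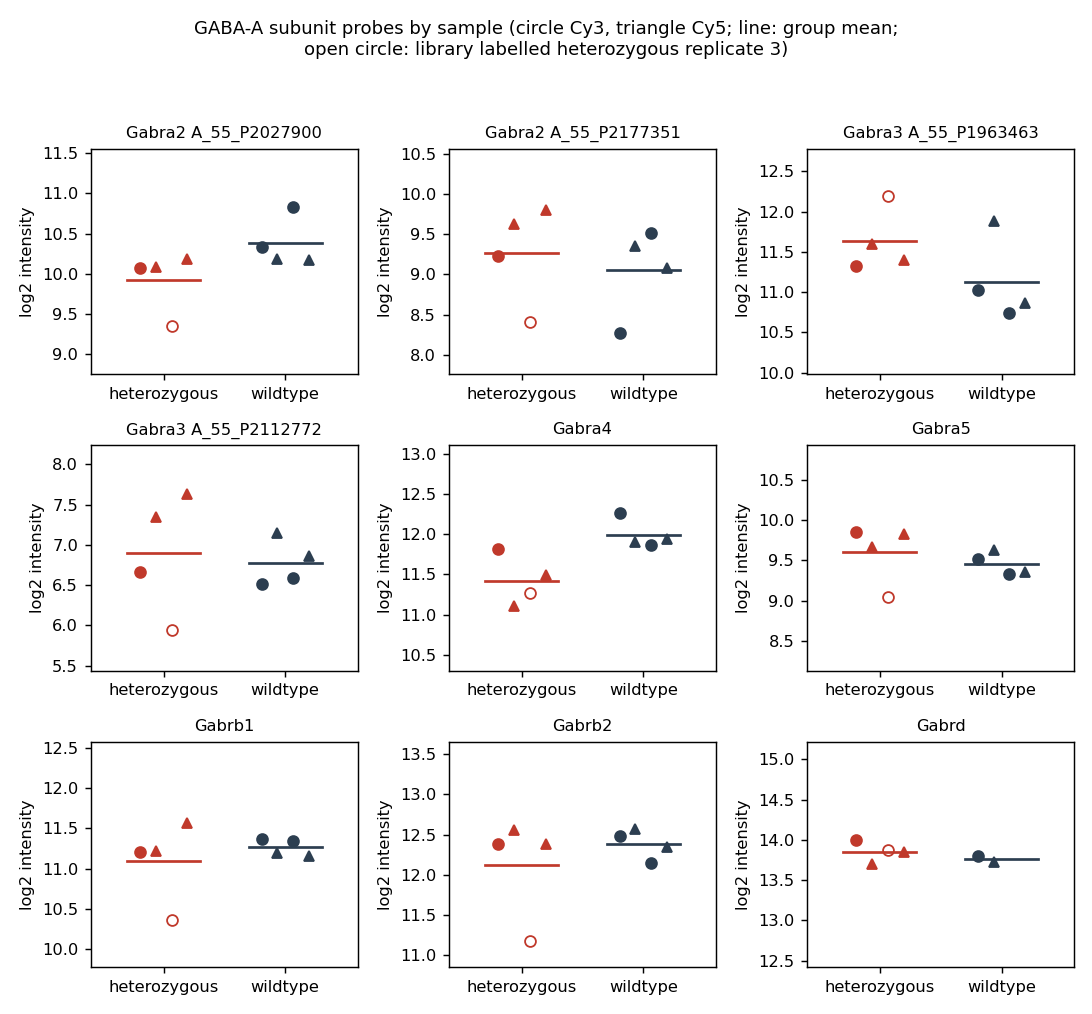
Normalised log2 intensity of each of the 9 probes in each sample, heterozygous (red) left of wildtype (dark), with circles for Cy3, triangles for Cy5 and a line at the group mean. The groups do not overlap for Gabra4, and the open circle, the library labelled heterozygous replicate 3, is the lowest of its group for 6 of the 9 probes.

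Gabra4 encodes the alpha-4 subunit, which makes receptors that benzodiazepines do not act on and which pairs with the delta subunit in extrasynaptic receptors of the striatum, thalamus and dentate gyrus. Its probe measured 11.81, 11.11, 11.27 and 11.49 in heterozygous replicates 1 to 4, against 12.26, 11.90, 11.86 and 11.93 in wildtype replicates 1 to 4. Every heterozygous value lay below every wildtype value, with heterozygous replicate 1 closest to the wildtype range. The means were 11.42 ± 0.31 in heterozygous and 11.99 ± 0.18 in wildtype samples (SD, n = 4 each). The difference was -0.57 (SE 0.16, 95% interval -0.95 to -0.20), a heterozygous level of 67.3% of wildtype, and it missed the threshold (limma adjusted p = 0.452, unadjusted p = 0.00806).

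The Gabra4 difference was similar in size within each dye, at -0.52 in the Cy3 samples and -0.62 in the Cy5 samples. Without the library labelled heterozygous replicate 3 it was -0.46 (SE 0.17, limma adjusted p = 0.399). Of the 7 member probes with a value in every sample Gabra4 alone had groups that did not overlap, where 4.82% of all such probes did, 2.92% with heterozygous samples lower. With the dye difference removed, Gabra4 lay below the wildtype mean by values of -0.27, -0.78, -0.82 and -0.41 in heterozygous replicates 1 to 4. The striatal projection neuron markers, all 12 of negative difference, stood at 0.18, -0.70, -1.10 and -0.06 in the same samples, so the samples lowest in Gabra4 were also lowest in these markers, while Gabra4 was below the wildtype mean in the other pair as well. In bulk tissue fewer cells of a type and less RNA per cell cannot be told apart, and the part of cell composition in the Gabra4 difference was not tested.

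Gabrd encodes the delta subunit, the partner of alpha-4 in tonic receptors. Its probe (chromosome 4, minus strand; the files align 19 of its 60 bases, at 154759071 to 154759089) measured 14.00, 13.70, 13.87 and 13.84 in heterozygous samples, against 13.79 and 13.72 in wildtype replicates 1 and 2. The spot was marked as an outlier in both channels of the array of wildtype replicates 3 and 4, so the fit dropped those values. The groups overlapped and the difference was 0.10 (SE 0.13, 95% interval -0.23 to 0.42, limma adjusted p = 0.836). With the outlier spots kept it was 0.44 (SE 0.23, limma adjusted p = 0.602), so its size rests on the dropped values. Without the library labelled heterozygous replicate 3 it was 0.12.

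Gabra5 encodes the alpha-5 subunit, also found largely outside synapses and best known from hippocampal pyramidal neurons. Its probe (chromosome 7, minus strand, 64663486 to 64663545) measured 9.86, 9.67, 9.05 and 9.83 in heterozygous replicates 1 to 4, against 9.52, 9.63, 9.34 and 9.36 in wildtype. The third heterozygous value, the one not well above background, was the lowest of all 8 and the other 3 were the highest. The difference was 0.14 (SE 0.18, 95% interval -0.28 to 0.56, limma adjusted p = 0.825). Without the library labelled heterozygous replicate 3 it was 0.33 (SE 0.13, limma adjusted p = 0.403, unadjusted p = 0.0343). In that setting Gabra4 and Gabra5 were the 2 member probes of 8 with an unadjusted p under 0.05, where 11.6% of all probes had one, and the 2 of 7 whose groups did not overlap, where 13.4% of all did.

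Gabra2 encodes the alpha-2 subunit, a synaptic and benzodiazepine-sensitive subunit common in the forebrain. The first probe, A_55_P2027900, measured 10.07, 10.09, 9.35 and 10.19 in heterozygous replicates 1 to 4, against 10.33, 10.18, 10.83 and 10.17 in wildtype. Apart from the low heterozygous replicate 3 and the high wildtype replicate 3, both labelled with Cy3, the samples lay within a narrow band. The difference was -0.45 (SE 0.23, 95% interval -0.99 to 0.08, limma adjusted p = 0.597), made up of -0.87 in the Cy3 samples and -0.04 in the Cy5 samples. Without the library labelled heterozygous replicate 3 it was -0.22 (SE 0.17).

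The overlapping probe A_55_P2177351 did not give the same picture. It measured 9.23, 9.63, 8.41 and 9.80 in heterozygous replicates 1 to 4, against 8.28, 9.35, 9.51 and 9.08 in wildtype, and was not well above background in the lowest sample of each genotype. Its difference was 0.21 (SE 0.30, 95% interval -0.48 to 0.90, limma adjusted p = 0.838), opposite in sign to that of the first probe. It was 0.44 (SE 0.31) without the library labelled heterozygous replicate 3, 0.016 (SE 0.27) without wildtype replicate 1 and 0.51 (SE 0.19, limma adjusted p = 0.389) without wildtype replicate 3. Across the 8 samples the values of both probes had a Pearson r of 0.52 with the dye difference removed, and of 0.36 without the library labelled heterozygous replicate 3. The mean of both gave a Gabra2 difference of -0.12 (SE 0.26), so no direction was set for Gabra2.

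Gabra3 encodes the alpha-3 subunit, benzodiazepine-sensitive and prominent in cortex and brainstem. Its first probe measured 11.33, 11.60, 12.20 and 11.41 in heterozygous replicates 1 to 4, against 11.02, 11.88, 10.75 and 10.86 in wildtype. The highest value belonged to the library labelled heterozygous replicate 3 and the next to wildtype replicate 2, so the groups overlapped. The difference was 0.50 (SE 0.29, 95% interval -0.17 to 1.18, limma adjusted p = 0.636), with 0.88 in the Cy3 and 0.13 in the Cy5 samples, and it was 0.25 (SE 0.25) without that library. Without wildtype replicate 2 it was 0.79 (SE 0.21, limma adjusted p = 0.586, unadjusted p = 0.00817). In cortical excitatory neuron markers the same samples stood at 2.08, 1.45, 1.17 and 0.74 in heterozygous replicates 1 to 4, and wildtype replicate 2 was the highest of wildtype at 0.72. Thalamic markers stood at -0.06, 0.31, 1.35 and 0.40 in heterozygous replicates 1 to 4, with wildtype replicate 2 again highest of wildtype at 0.21. The part of either cell type in the Gabra3 values was not tested.

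The second Gabra3 probe measured 6.67, 7.35, 5.95 and 7.64 in heterozygous samples, against 6.51, 7.14, 6.59 and 6.87 in wildtype. In wildtype it was not well above background on any array, and in heterozygous samples it was so on 2 of 4, so no fold is given. Both heterozygous samples that measured it carried Cy5.

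Gabrb1 and Gabrb2 encode beta subunits, which complete the GABA-binding site and anchor the receptor through their intracellular loops. The Gabrb1 probe (chromosome 5, plus strand, 72528086 to 72528145) measured 11.21, 11.22, 10.36 and 11.57 in heterozygous replicates 1 to 4, against 11.37, 11.19, 11.35 and 11.16 in wildtype. The difference was -0.18 (SE 0.23, 95% interval -0.71 to 0.36, limma adjusted p = 0.824) and became 0.09 (SE 0.14) without the library labelled heterozygous replicate 3. The Gabrb2 probe (chromosome 11, plus strand, 42445782 to 42445841) measured 12.39, 12.56, 11.18 and 12.38 in heterozygous replicates 1 to 4, against 12.49, 12.57, 12.14 and 12.34 in wildtype. Its difference was -0.26 (SE 0.26, 95% interval -0.87 to 0.35, limma adjusted p = 0.772), and without that library it was 0.03 (SE 0.13, 95% interval -0.28 to 0.34). For both genes the sign rested on this 1 library. The other 3 heterozygous samples lay within the wildtype range, except that Gabrb1 was above it in heterozygous replicate 4.

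**Figure D3:**
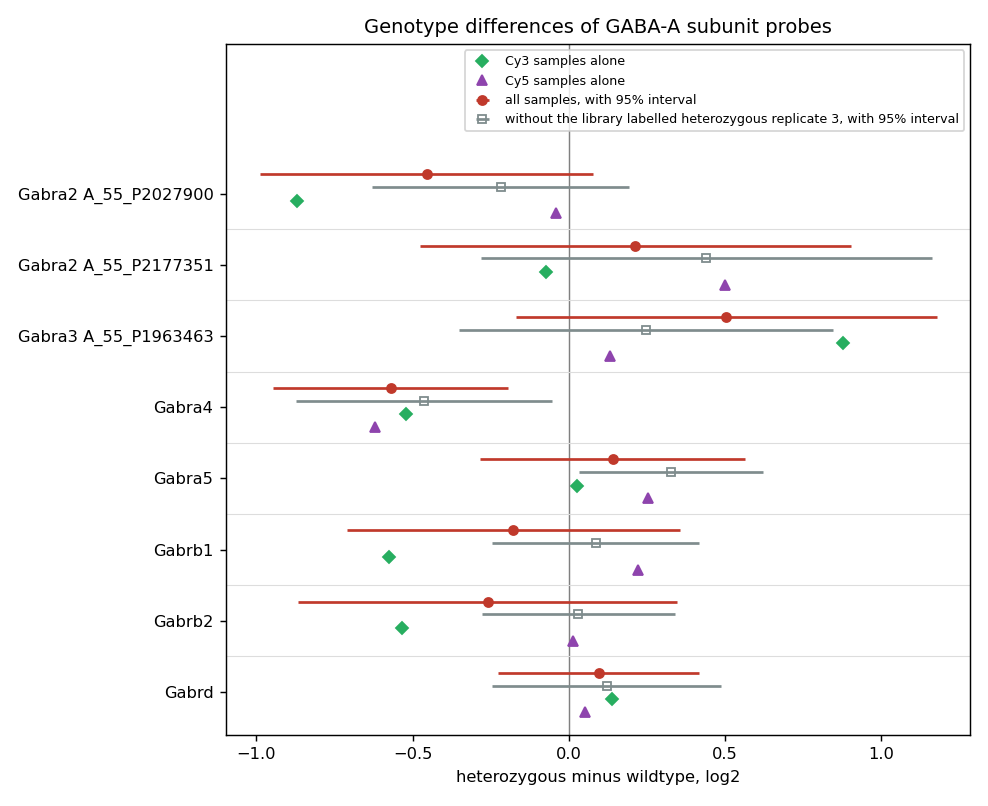
Heterozygous minus wildtype difference (log2) of the 8 tested probes over all samples and without the library labelled heterozygous replicate 3, each with the 95% interval of the limma fit, and within the Cy3 and Cy5 samples alone. Gabra4 keeps a negative difference of -0.46 to -0.62 in these settings, while Gabrb1, Gabrb2 and the second Gabra2 probe change sign.

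The library labelled heterozygous replicate 3 set much of the spread among the subunits. With the dye difference removed it was the lowest of all 8 samples for 5 of the 7 probes with complete values and the highest for 1, that of Gabra3. It was the lowest for 25.6% and the lowest or highest for 47.4% of all probes with complete values. This library also had the lowest share of spots well above background (37.7%), and the part of that in its values was not tested. Its deviation from the wildtype mean was -1.02 for the first Gabra2 probe, -0.82 for Gabra4, -0.80 for Gabrb1, -0.32 for Gabra5 and 1.13 for Gabra3, but 0.04 for Gabrd. Across samples Gabrb1 followed Gabrb2 with a Pearson r of 0.84 over 8 samples, but of 0.38 over the 7 without this library, so the likeness rested largely on it. The first Gabra2 probe and Gabra3 ran opposite to each other, at r = -0.82 over 8 and -0.59 over 7 samples. These correlations describe samples that share arrays and dyes and carry no test.

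**Figure D4:**
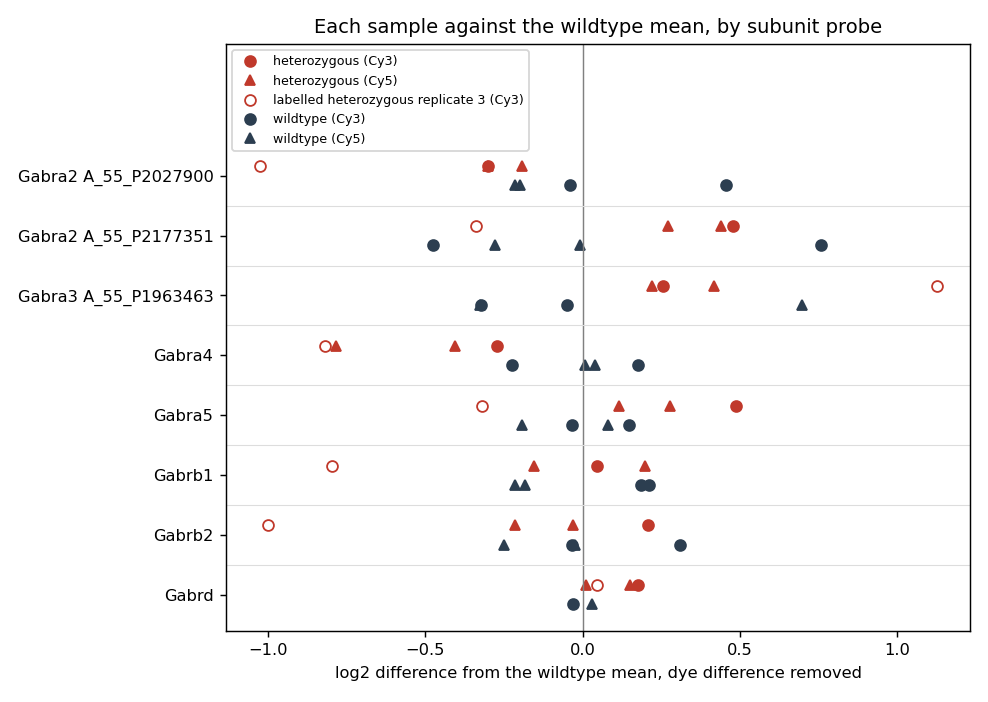
Log2 difference of each sample from the wildtype mean for the 8 tested probes, with the dye difference removed, heterozygous samples above wildtype samples in each row. The library labelled heterozygous replicate 3 (open circle) lies at -1.02 for the first Gabra2 probe and at -0.80 for Gabrb1, whereas the 6 samples with a value for Gabrd lie between -0.03 and 0.18.

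In the genome the alpha-2, alpha-4 and beta-1 genes are neighbours in 1 cluster on chromosome 5, in RefSeq's gene order of assembly GRCm38.p6, whereas Gabra5, Gabrb2, Gabra3 and Gabrd lie on chromosomes 7, 11, X and 4. The cluster also holds Gabrg1, a gamma subunit gene that is not among the 7 described. The 3 described genes in it did not share a direction in every library. Gabra4 was below the wildtype mean in 4 of 4 heterozygous samples and the first Gabra2 probe in 4 of 4, but the second Gabra2 probe in 1 of 4 and Gabrb1 in 2 of 4.

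The genes most like each subunit across the 8 samples were taken as the 3 with the highest Pearson r after the dye difference was removed. For Gabra4 they were Gsk3b, a kinase gene (r = 0.99), Zfp937 (0.99) and Smad3, a mediator of TGF-beta signalling (0.99). For Gabra3 they were Otud7a (0.99), Plekha7 (0.99) and Nt5dc3 (0.98). For Gabra5 they were the AMP-activated kinase subunit gene Prkaa2 (0.98), Dst (0.98) and Ufm1 (0.98), and for the first Gabra2 probe 1110018N20Rik (0.99), Rims4 (0.99) and Ldhal6b (0.99). For Gabrb1 they were Ptpn9 (0.997), Gm14015 (0.996) and Tal1 (0.995), and for Gabrb2 Mgrn1 (0.99), Zfp239 (0.99) and Cacnb4, a calcium channel beta subunit gene (0.99). These likenesses were picked as the highest over 8 samples and carry no test. The search covered those of the 23879 tested probes with complete values that had a RefSeq symbol. Gabrd, which lacked 2 values, was left out.

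Of the 12 other GABA-A subunit genes, 9 had a tested probe, and none of their 13 probes passed the threshold. Their median difference was -0.12, with 10 probes negative and 3 positive. An unadjusted p under 0.05 was found for 1 probe, where 8.89% of all probes had one. That was Gabrr2, a rho subunit gene, at 10.31 ± 0.27 in heterozygous and 10.69 ± 0.07 in wildtype samples (SD, n = 4 each), a difference of -0.38 (SE 0.15, limma adjusted p = 0.517). It was -0.34 (SE 0.16) without the library labelled heterozygous replicate 3. In that setting 7 of the 13 probes were negative and 6 positive, with a median of -0.09. None then had an unadjusted p under 0.05, where 11.6% of all probes did. Next over all samples was a probe of Gabrg3, a gamma subunit gene, at -0.19 (SE 0.09), and another of its probes measured -0.25 (SE 0.12).

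The genes around the receptor were described as 2 further lists, of which no probe passed the threshold. Among 16 tested probes of 11 genes of GABA synthesis, uptake, breakdown and the GABA-B receptor, 11 were positive and 5 negative, with a median of 0.24, and 4 had an unadjusted p under 0.05, all higher in heterozygous samples, as 4.07% of all probes were at that p. The smallest p belonged to a dim probe of Gabbr2, a GABA-B subunit gene, at 0.60 (SE 0.17, limma adjusted p = 0.449), well above background in 2 samples of each genotype. The other tested Gabbr2 probe measured 0.45 (SE 0.37), and 0.003 without the library labelled heterozygous replicate 3. It was followed by Slc6a13, a GABA transporter gene that meningeal cells also express, at 0.82 (SE 0.26, limma adjusted p = 0.478). With that doubtful library, heterozygous replicate 3 by its label, left out the list had a median of 0.16. At an unadjusted p under 0.05 there were then 6 probes higher and 1 lower. Of all 25349 probes in that setting 1376 were higher and 1562 lower at that p, or 11.6% in both directions. Slc6a13 then differed by 0.80 (SE 0.30). Among 31 tested probes of 19 genes of receptor assembly and chloride transport, 18 were positive and 13 negative, with a median of 0.06. Clptm1, whose product holds GABA-A receptors in the endoplasmic reticulum, measured 13.76, 14.01, 13.59 and 13.97 in heterozygous samples, against 12.68 and 12.91 in wildtype replicates 1 and 2, the only wildtype values that were not marked as outliers. Its difference was 1.04 (SE 0.13, limma adjusted p = 0.269), and 1.08 (SE 0.13) without the library labelled heterozygous replicate 3. A probe of Hap1, whose product aids the return of GABA-A receptors to the membrane, followed at -0.55 (SE 0.25, limma adjusted p = 0.569) and at -0.36 (SE 0.25) without that library, and the other Hap1 probe measured -0.13 (SE 0.31).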

How the data were processed

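Spot intensities and local backgrounds were deposited as scanner output of Agilent Feature Extraction 10.7.3.1, per the file headers. Only the channel labelled for a sample was used for it. Processed intensities in the same files were background-subtracted and dye-normalised by that software, per the file headers. The authors' deposited value table holds a ratio of each spot's background-subtracted median to the median of its column, found from the values. It was used as an alternative only.

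Intensities were corrected with normexp (offset 50), normalised by loess within and Aquantile between arrays, and split into log2 channels in limma 3.58.1 (R 4.3.3, statmod 1.5.0). Outlier spots were dropped and replicate spots averaged. The 25352 probes well above background in at least 4 of 8 samples entered lmFit and eBayes with terms for genotype and dye, and with the array as random block (consensus correlation -0.0118). Symbols came from RefSeq by accession for 27228 probes and by symbol for 3581, and 8620 kept the file's name. The fit was tested on simulated data. All arrays were on 1 slide and each held 1 genotype, so array effects and genotype cannot be fully told apart. No label says that each sample was a separate animal, and the p-values then reflect only sample-to-sample spread, which may be technical.

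The subunit genes, lists and tests were chosen with earlier results of these data known. Named were every probe of the 7 genes, Brd2, per list the 2 genes of lowest p, and per subunit the 3 most similar genes. Btbd9, marker genes and the further Gabrg3, Gabbr2 and Hap1 probes were named after their values were seen. Figures were drawn with matplotlib 3.10.9.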

Additional observations from a re-analysis of the deposited data

Results flagged for a closer look

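Of 17 groups of 4 values (9 probes in both genotypes, less Gabrd in wildtype), 2 held a sample far from the other 3, where chance gives about 1 in 20. Both were the library labelled heterozygous replicate 3. It measured 9.35 for the first Gabra2 probe, against 10.07 to 10.19 in the other heterozygous samples, and 11.18 for Gabrb2, against 12.38 to 12.56. Relative to the wildtype mean it stood at -1.10 in striatal projection neuron markers, 1.35 in thalamic markers and 1.96 in choroid plexus markers. The part of these in both values was not tested.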

How the results depend on the processing

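Of all probes 1 passed the threshold in limma, with 2255 at an unadjusted p under 0.05, and 27 alternatives gave 0 to 3. The count was 3 with processed signals after quantile normalisation and 2 at a threshold of adjusted p under 0.1. It was 0 with the deposited value table, without normalisation between arrays, without the filter on dim probes, with the brightest probe of each gene, with the replicate block and in the Cy3 samples alone, with 176 to 3149 at an unadjusted p under 0.05. Leaving out single samples gave 0 to 1, with 1 only without the library labelled heterozygous replicate 3. Of the subunit probes none passed in any alternative. The replicate numbers are not stated to pair samples (correlations of same-numbered deviations -0.30 to 0.165), and with the replicate block Gabra4 differed by -0.57 (SE 0.12, limma adjusted p = 0.447). Over the alternatives the Gabra4 difference ranged from -0.68 to -0.42, with adjusted p from 0.316 to 1. Leaving out single samples gave -0.424 to 0.0858 for Gabrb1, -0.466 to 0.0306 for Gabrb2 and -0.0017 to 0.327 for Gabra5. These upper ends are without the library labelled heterozygous replicate 3. It gave 0.247 to 0.787 for Gabra3, -0.651 to -0.218 for the first and 0.016 to 0.508 for the second Gabra2 probe, and 0.0518 to 0.140 for Gabrd, which was 0.436 with outlier spots kept. In the Cy5 samples alone Gabrb1 differed by 0.22 and Gabrb2 by 0.0145. With processed signals after quantile normalisation Gabra5 differed by -0.0613 and Gabrd by -0.0986, and after scaling to the 75th percentile Gabra5 by -0.0858 and Gabrd by -0.124. The second Gabra2 probe differed by -0.0719 in the Cy3 samples alone. The cause of these sign changes was not tested. Only 4 samples per genotype limit the precision, and the dim probes of Gabra2, Gabra3 and Gabra5 lie near background in some samples.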
